A study of Mus musculus with 9 samples.

Results

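The large, or 60S, subunit of the cytosolic ribosome is put together in the nucleolus by proteins that are not part of the finished particle. RNA for 37 genes of such 60S assembly factors was followed here in cultured mouse cells with and without a retrovirus for a MYC family protein. The genes were chosen by name from a list of large subunit factors, with earlier results of these data known. Each was read on its brightest probe set, by the mean of the 9 Affymetrix arrays. A probe set naming 1 gene was found for 36 of the 37, and all 36 were among the 12976 genes tested. The remaining gene is Mrto4, for the mRNA turnover factor that holds the place of a ribosomal stalk protein on the precursor. Its probe set is annotated to several genes, so Mrto4 has no value here. The cells are preSC, precancerous neuroendocrine cells of the lung, taken from Rb/p53/p130 conditional mice after Adeno-Cre virus, on a mixed C57BL/6 and 129/Sv background. All 4 groups share this Rb/p53/p130 genotype and the same serum culture: 3 arrays of preSC, and 2 arrays each of preSC carrying retro-L-Myc, retro-C-Myc or retro-N-Myc virus. The untransduced preSC are the controls, and a control for the retrovirus itself was not analysed here. The question that the design poses is how preSC with an added MYC protein differ from preSC.

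Assembly begins on the long precursor RNA made by RNA polymerase I, which holds the RNAs of both subunits separated by spacers. Scaffold proteins, RNA helicases and the PeBoW complex (PES1, BOP1, WDR12) fold and trim the large subunit RNA, GTPases check the particle, and large ATPases pull factors off so that it can move to the nucleoplasm and then to the cytoplasm. Cleavage within the second internal spacer, ITS2, separates the 5.8S and 28S RNAs. MYC proteins are transcription factors that bind DNA with MAX at E-boxes such as CACGTG, and genes of ribosome production are among their best known targets.

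Values are log2 intensities as deposited, changes are differences of group means on that scale with the standard error (SE) of a limma fit over all 9 arrays, and a gene is said to have risen or fallen only where its Benjamini-Hochberg adjusted p over all genes was under 0.05. The arrays were unevenly spaced. Of the genes tested, 0.0308% differed over 2-fold between preSC 1 and preSC 2 and 0.0385% between the N-Myc arrays, against 7.41% between preSC 1 and preSC 3, 8.69% between the L-Myc arrays and 10.9% between the C-Myc arrays. The design text calls the replicates biological, but no label names a culture for arrays this close, and p-values measure the spread between these arrays only. With preSC 1 and 2 averaged, and the N-Myc arrays averaged, 0 of the 36 genes passed in any comparison with preSC, and 2, 2 and 0 of all genes passed, in the order L-Myc, C-Myc, N-Myc. The median changes of the 36 genes stayed at 0.45, 0.94 and 0.86 in that fit, against 0.48, 0.99 and 0.93. Counts of calls below therefore hold only if those arrays are independent. Dcn, a fibroblast gene, and Lyz2, a gene of macrophages and alveolar cells, told 2 sets of arrays apart across the groups. In preSC 3, L-Myc 2 and C-Myc 2, Dcn was at 9.32 to 10.32 and Lyz2 at 5.61 to 6.76. In the other 6 arrays Dcn was at 5.29 to 6.86 and Lyz2 at 9.31 to 12.31, and over 2-fold separation of all arrays of the sets was found for 65 genes in 1 direction and 58 in the other, none of them among the 36. All 9 neuroendocrine markers with a value were above the detection level on all arrays. So were 1 of 6 fibroblast (Pdgfra), 2 of 5 leukocyte (Lyz2, Cd3e), 1 of 5 endothelial (Kdr) and 3 of 5 club, alveolar and ciliated markers (Sftpc, Sftpb, Ager), whereas Col1a1, Ptprc, Pecam1 and Scgb1a1 were above it on none. The mean level of 6 fibroblast markers was 5.00 to 5.44 in preSC and 4.87 to 5.58 in transduced arrays. The mean level of 5 leukocyte markers was 4.74 to 5.62 in preSC and 5.08 to 6.28 in transduced arrays, that of 5 club, alveolar and ciliated markers 5.75 to 6.29 and 5.61 to 6.69, and that of 5 endothelial markers 4.41 to 4.67 and 4.41 to 4.59. The part of these sets in the results was not tested beyond the values given below. The preSC arrays also differed from all transduced arrays in 18S RNA signal (12.88 to 13.91 against 8.22 to 9.35) and in the 5′ minus 3′ difference of the Dap spike (-3.33 to -3.02 against -1.27 to -0.99). The part of that difference in any rise over preSC was not tested. The labels give polyA RNA for preSC and L-Myc and total RNA for C-Myc and N-Myc, so this label and the group cannot be told apart except between L-Myc and preSC and between C-Myc and N-Myc. As a check of the labels, Myc was at 6.50, 6.82 and 8.13 in preSC, 5.63 and 7.29 with L-Myc, 11.22 and 10.68 with C-Myc, and 11.96 and 11.40 with N-Myc, so the arrays labelled N-Myc also had high Myc. For Mycl and Mycn the probe sets disagreed. The brightest of 3 for Mycl was at 8.65 to 9.03 in preSC and at 8.56 and 8.78 in L-Myc arrays, while the next was at 5.39 to 5.74 in preSC, 11.79 and 12.74 in L-Myc, 6.68 and 8.52 in C-Myc and 6.98 and 7.24 in the N-Myc arrays. The brightest of 3 for Mycn was at 6.37 to 6.89 in preSC and higher in every transduced array, least in those labelled N-Myc (12.92 and 13.33 with L-Myc, 13.54 and 13.08 with C-Myc, 11.64 and 11.07 with N-Myc). The next was at 7.74 to 8.52 in preSC and at 5.62 and 5.47 with N-Myc, and the dimmest at 9.05 and 8.46 with N-Myc against 5.79 to 6.39 elsewhere.

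Among the 36 60S assembly genes, 5 rose in L-Myc, 21 in C-Myc and 24 in N-Myc arrays, and 0 fell. Over all genes tested, the share called higher was 5.44% for L-Myc, 9.91% for C-Myc and 12.5% for N-Myc, and the share called lower was 8.03%, 13.6% and 16.4%. The median change of the 36 genes was 0.48 with L-Myc (range -0.52 to 1.53), 0.99 with C-Myc (0.16 to 2.11) and 0.93 with N-Myc (-0.08 to 2.13), beside medians over all genes of -0.04, -0.05 and -0.03. A change above 0 was seen for 30, 36 and 35 of the 36, where 46.1%, 46.2% and 47.8% of all genes had one. In L-Myc arrays Mdn1, Urb2 and Rrp1b lay wholly below preSC without passing. Every transduced array lay above every preSC array for 26 genes in L-Myc, 28 in C-Myc and 32 in N-Myc, where 22.0%, 23.2% and 30.7% of all genes did so. At an unadjusted p under 0.05, 20, 27 and 27 were higher and 0 lower. Of all genes tested, 1631, 2069 and 2462 were higher at that level and 2332, 2896 and 3042 lower.

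**Figure D1:**
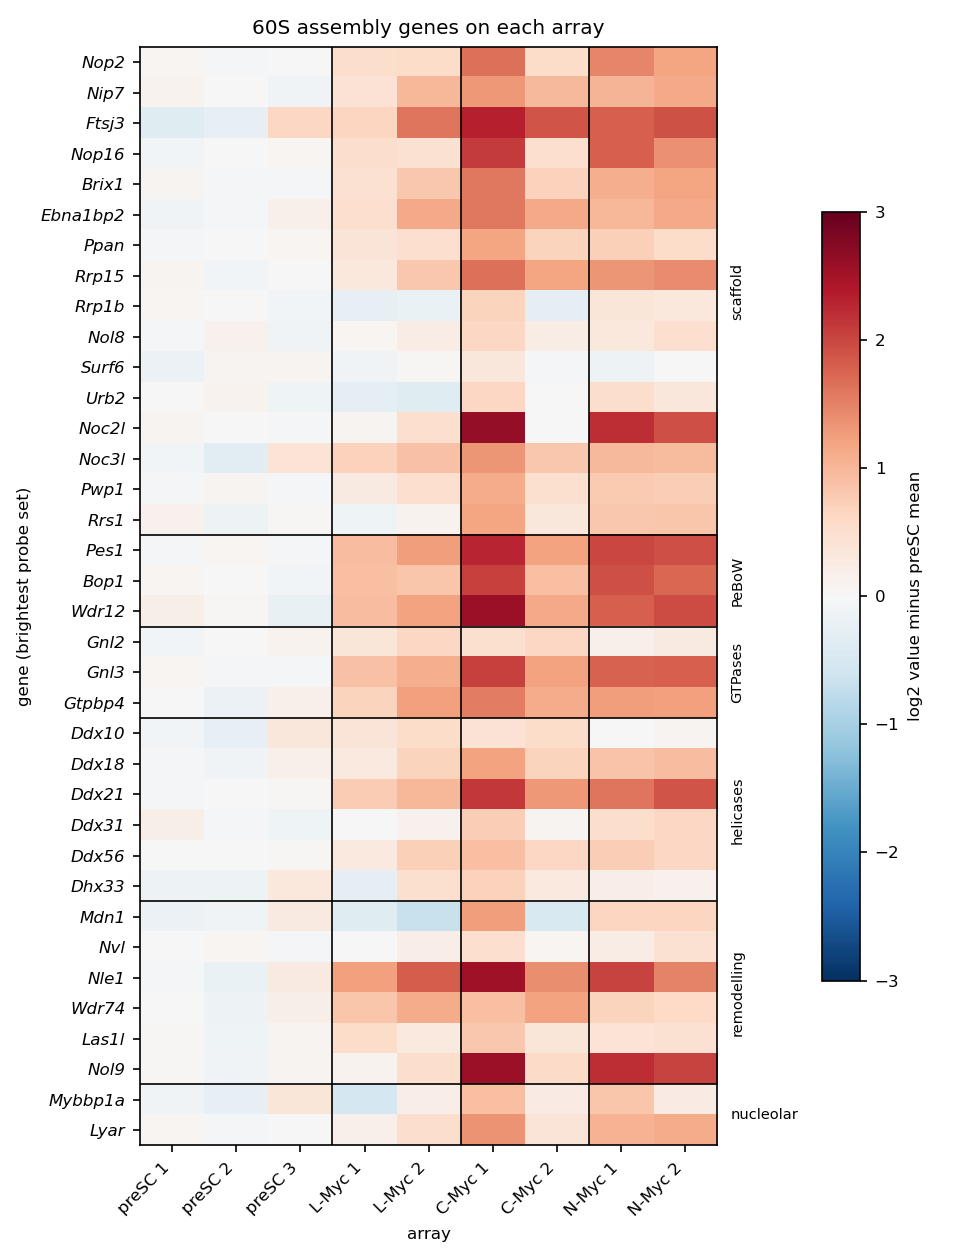
Heat map of the 36 genes (rows, brightest probe set, grouped by role) on the 9 arrays (columns); colour is the log2 value minus the mean of the 3 preSC arrays. The C-Myc 1 column is the most strongly coloured, with all 36 genes above every preSC array (34.4% of all genes). C-Myc 2 resembles the L-Myc columns, with 28 above (33.9% of all genes).

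All 5 genes that rose in L-Myc arrays, Pes1, Gnl3, Gtpbp4, Nle1 and Wdr74, also rose in C-Myc and N-Myc arrays. A further 14 rose in C-Myc and N-Myc arrays, 2 rose in C-Myc only (Gnl2, Las1l), 5 in N-Myc only (Nop16, Noc2l, Rrs1, Nol9, Lyar) and 10 in no comparison, although differences between the transduced groups did not pass for any of them. The calls changed with the arrays fitted, as those over all genes did. In L-Myc arrays there was 1 call without preSC 1 and 0 without preSC 2. All genes called higher then came to 2.41% and 1.79%, against 5.44%. In C-Myc arrays there were 13 calls without preSC 1 or preSC 2, where 5.33% and 4.39% of all genes were called higher, against 9.91%. In N-Myc arrays there were 13 calls without preSC 1 and 11 without preSC 2. All genes called higher then came to 6.96% and 5.66%, against 12.5%. Leaving out a transduced array leaves 1 array in its group. Without either N-Myc array most N-Myc calls were lost, here and over all genes. L-Myc calls were fewer without L-Myc 2 or either N-Myc array and more numerous without either C-Myc array. C-Myc calls were fewer without C-Myc 1.

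**Figure D2:**
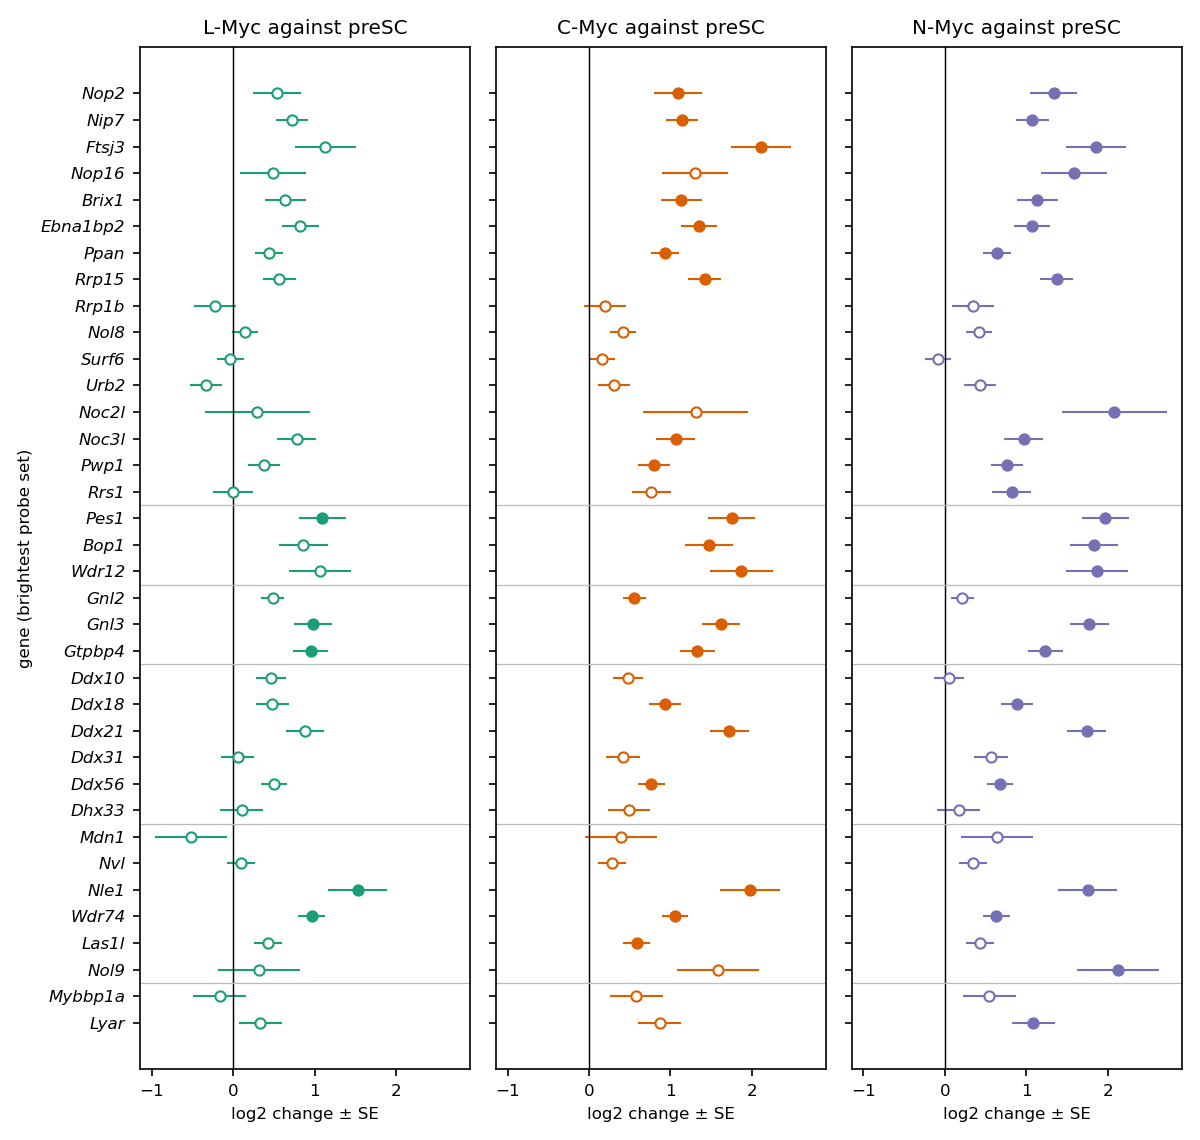
Change against preSC for each of the 36 genes in L-Myc (left), C-Myc (middle) and N-Myc arrays (right), as log2 change with its limma SE (bars); filled points passed an adjusted p of 0.05 and open points did not, and grey lines part the role groups. Filled points number 5, 21 and 24, and no filled point lies below 0.

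The 3 PeBoW genes, whose products form a complex needed to mature the 5.8S and 28S RNAs, had the highest group median in C-Myc (1.75) and L-Myc arrays (1.06), and in N-Myc arrays (1.87). Pes1 was at 8.79, 8.87 and 8.79 in preSC, 9.74 and 10.07 with L-Myc, 11.11 and 10.03 with C-Myc, and 10.83 and 10.75 with N-Myc. Every transduced array stood above the preSC arrays, which lay within 0.08 of each other. Pes1 rose by 1.09 in L-Myc (SE 0.29, adjusted p = 0.0473), by 1.75 in C-Myc (SE 0.29, adjusted p = 0.00804) and by 1.97, or 3.93-fold, in N-Myc arrays (SE 0.29, adjusted p = 0.00514). Bop1, for the scaffold of the complex, was at 8.37, 8.32 and 8.23 in preSC, 9.20 and 9.14 with L-Myc, 10.35 and 9.21 with C-Myc, and 10.24 and 10.04 with N-Myc. C-Myc 2 sat with the L-Myc arrays and C-Myc 1 with the N-Myc arrays. Bop1 rose by 1.47 in C-Myc (SE 0.30, adjusted p = 0.0143) and by 1.83 in N-Myc arrays (SE 0.30, adjusted p = 0.00693), and differed by 0.86 in L-Myc arrays without passing (SE 0.30, adjusted p = 0.0991). Wdr12, for a WD-repeat protein that the ATPase midasin later acts on, was at 8.02, 7.89 and 7.63 in preSC, 8.77 and 9.05 with L-Myc, 10.45 and 8.99 with C-Myc, and 9.63 and 9.80 with N-Myc. It rose by 1.87 in both C-Myc (SE 0.38, adjusted p = 0.0149) and N-Myc arrays (adjusted p = 0.0132), and differed by 1.06 in L-Myc arrays without passing (adjusted p = 0.11), although no L-Myc array overlapped preSC. The next brightest probe sets of Pes1 and Bop1 did not show the rises: the changes there were 0.14, 0.12 and -0.08 for Pes1 and -0.23, 0.26 and 0.10 for Bop1, in the order L-Myc, C-Myc, N-Myc. Those of Wdr12 were 0.79, 1.33 and 1.43, of which the last 2 passed.

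Of the 3 GTPase genes, 2 rose in L-Myc, 3 in C-Myc and 2 in N-Myc arrays. Gnl3 encodes nucleostemin, a nucleolar GTP-binding protein abundant in stem and tumour cells. It was at 9.64, 9.57 and 9.57 in preSC, 10.48 and 10.68 with L-Myc, 11.65 and 10.79 with C-Myc, and 11.36 and 11.39 with N-Myc. The groups stood in steps, with L-Myc about 1 unit above preSC and N-Myc higher again. The rises were 0.98 in L-Myc (SE 0.24, adjusted p = 0.0355), 1.62 in C-Myc (adjusted p = 0.00541) and 1.78 in N-Myc arrays (adjusted p = 0.00414), and the gene has a single probe set. Gtpbp4, for the GTPase NOG1 that inserts its tail into the peptide exit tunnel of the precursor, rose by 0.95, 1.33 and 1.23, and its next brightest probe set rose too, by 1.06 (adjusted p = 0.0319), 1.60 and 1.39. Gnl2, for a GTPase that accompanies the particle out of the nucleolus, rose by 0.56 in C-Myc arrays (SE 0.14, adjusted p = 0.0276) but differed by -0.18 there on its next brightest probe set.

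Of the 16 scaffold and rRNA-binding genes, 0 passed in L-Myc, 9 rose in C-Myc and 12 in N-Myc arrays, where 5.44%, 9.91% and 12.5% of all genes were called higher. Their medians were 0.47, 1.08 and 1.02, and no difference between transduced groups passed. Ftsj3, for a methyltransferase that acts on the precursor RNA, had the largest change in C-Myc arrays. It was at 7.06, 7.18 and 8.04 in preSC, 8.08 and 9.04 with L-Myc, 9.76 and 9.32 with C-Myc, and 9.23 and 9.34 with N-Myc. preSC 3 stood almost as high as L-Myc 1. Ftsj3 rose by 2.11, or 4.32-fold, in C-Myc (SE 0.37, adjusted p = 0.00962) and by 1.86 in N-Myc arrays (adjusted p = 0.0124), and differed by 1.13 in L-Myc arrays without passing (adjusted p = 0.0887). Nop2, for a nucleolar RNA methyltransferase long known as a proliferation antigen, was at 8.39, 8.26 and 8.31 in preSC, 8.85 and 8.87 with L-Myc, 9.97 and 8.86 with C-Myc, and 9.80 and 9.52 with N-Myc. The preSC arrays were tight and every transduced array lay above them, but C-Myc 2 lay between the L-Myc arrays. Nop2 rose by 1.09 in C-Myc (SE 0.29, adjusted p = 0.0347) and by 1.33 in N-Myc arrays (adjusted p = 0.0166), and differed by 0.54 in L-Myc arrays without passing (adjusted p = 0.263).

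Noc2l, for a partner of the NOC scaffold proteins that also inhibits histone acetylation, was at 7.26, 7.18 and 7.12 in preSC, 7.27 and 7.68 with L-Myc, 9.82 and 7.18 with C-Myc, and 9.41 and 9.13 with N-Myc. C-Myc 2 lay within the preSC range and C-Myc 1 above the N-Myc arrays. It rose by 2.08 in N-Myc arrays (SE 0.65, adjusted p = 0.0476) and differed by 1.31 in C-Myc arrays without passing (adjusted p = 0.18). Rrs1, for a factor that brings the 5S particle into the precursor, had smaller changes. They were 0.76 in C-Myc (adjusted p = 0.0566), 0.82 in N-Myc (adjusted p = 0.0396) and near 0 in L-Myc arrays (adjusted p = 0.996). On its next brightest probe set, almost as bright, they were 1.04, 1.09 and 0.33 in that order, of which the first 2 passed. Rrp15 (1.42 and 1.37), Ebna1bp2 (1.35 and 1.07), Nip7 (1.14 and 1.08), Brix1 (1.13 and 1.13), Noc3l (1.06 and 0.97), Ppan (0.93 and 0.64) and Pwp1 (0.80 and 0.77), all for factors of the precursor particle or its RNA processing, rose in both groups, the first value being that in C-Myc arrays. The next brightest probe sets of Ebna1bp2, Brix1 and Noc3l passed in no comparison with preSC. The RNA-binding factors Rrp1b, Nol8, Surf6 and Urb2 passed in no comparison on their brightest probe sets. The next brightest of Nol8 rose by 0.99 in C-Myc (adjusted p = 0.0055) and 0.72 in N-Myc arrays (adjusted p = 0.0173). That of Rrp1b rose by 0.84 in N-Myc arrays (adjusted p = 0.0404), and that of Surf6 passed in none. Urb2 was at 7.95, 8.05 and 7.80 in preSC, 7.63 and 7.57 with L-Myc, 8.55 and 7.93 with C-Myc, and 8.47 and 8.28 with N-Myc, so L-Myc arrays lay below and N-Myc arrays above all preSC arrays, with differences of -0.34 and 0.44 that did not pass.

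Among the 6 RNA helicase genes, 0 passed in L-Myc and 3 rose in both C-Myc and N-Myc arrays: Ddx21, Ddx18 and Ddx56. Ddx21, for a helicase that also acts in transcription by RNA polymerases I and II, was at 8.92, 8.93 and 8.98 in preSC, 9.70 and 9.95 with L-Myc, 11.07 and 10.26 with C-Myc, and 10.55 and 10.82 with N-Myc. All 6 transduced arrays were well above the preSC arrays. It rose by 1.72 in C-Myc (SE 0.24, adjusted p = 0.00492) and by 1.74 in N-Myc arrays (adjusted p = 0.00433), and its change of 0.88 in L-Myc arrays missed the threshold narrowly (adjusted p = 0.0506). Ddx18 changed by 0.93 and 0.89, and Ddx56 by 0.77 and 0.68. Ddx10, Ddx31 and Dhx33 did not pass on their brightest probe sets, with changes of 0.05 to 0.57 over the 3 comparisons.

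The 6 genes of remodelling ATPases, their substrates and ITS2 cleavage were mixed, with 2, 3 and 3 rising and medians of 0.38, 0.82 and 0.64. Mdn1 encodes midasin, the giant ATPase that strips factors from the precursor, and Nle1 encodes one of the factors it removes. Nle1 had the largest change in L-Myc arrays. It was at 6.09, 5.97 and 6.42 in preSC, 7.40 and 7.98 with L-Myc, 8.71 and 7.56 with C-Myc, and 8.18 and 7.65 with N-Myc. All transduced arrays lay above preSC, and the transduced groups overlapped each other. The rises were 1.53, or 2.89-fold, in L-Myc (SE 0.37, adjusted p = 0.0354), 1.98 in C-Myc (adjusted p = 0.0111) and 1.75 in N-Myc arrays (adjusted p = 0.0141). Mdn1 itself was at 8.22, 8.28 and 8.66 in preSC, 8.02 and 7.72 with L-Myc, 9.64 and 7.92 with C-Myc, and 9.04 and 9.02 with N-Myc. Both L-Myc arrays and C-Myc 2 lay below all preSC arrays, and C-Myc 1 and both N-Myc arrays above. Its differences of -0.52, 0.39 and 0.64 (SE 0.44) did not pass in L-Myc, C-Myc or N-Myc arrays (adjusted p = 0.474, 0.55 and 0.306).

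Wdr74, for a partner of the ATPase NVL, was at 8.55, 8.42 and 8.74 in preSC, 9.39 and 9.68 with L-Myc, 9.47 and 9.77 with C-Myc, and 9.23 and 9.17 with N-Myc. Here the N-Myc arrays were the lowest of the transduced arrays and C-Myc 2 was above C-Myc 1, an order that Gnl2 and Ddx10 shared. Wdr74 rose by 0.97 in L-Myc (SE 0.17, adjusted p = 0.013), by 1.06 in C-Myc (adjusted p = 0.00682) and by 0.63 in N-Myc arrays (adjusted p = 0.0283). Las1l and Nol9 encode the endonuclease and the kinase that work as partners in cutting ITS2. Las1l was at 8.97, 8.81 and 9.01 in preSC, 9.49 and 9.23 with L-Myc, 9.73 and 9.29 with C-Myc, and 9.34 and 9.38 with N-Myc, all above preSC by a small margin. It rose by 0.58 in C-Myc arrays (SE 0.17, adjusted p = 0.0455) and differed by 0.43 in both other groups without passing (adjusted p = 0.138 and 0.0956). Nol9 was at 6.26, 6.11 and 6.30 in preSC, 6.33 and 6.76 with L-Myc, 8.82 and 6.81 with C-Myc, and 8.44 and 8.27 with N-Myc, so 3 arrays stood far above the others. It rose by 2.13, or 4.37-fold, in N-Myc arrays (SE 0.50, adjusted p = 0.0205), the largest change there, and differed by 1.59 in C-Myc (adjusted p = 0.0582) and by 0.32 in L-Myc arrays (adjusted p = 0.717) without passing. Nvl passed in no comparison on its brightest probe set, with changes of 0.09, 0.29 and 0.34. Its next brightest rose by 0.58 in C-Myc arrays (adjusted p = 0.0249) and passed in no other group.

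On their brightest probe sets, the 2 nucleolar regulators, Mybbp1a and Lyar, passed in neither L-Myc nor C-Myc arrays. Lyar, for a nucleolar zinc finger protein, rose by 1.08 in N-Myc arrays (SE 0.27, adjusted p = 0.0226) and differed by 0.87 in C-Myc arrays (adjusted p = 0.0518). Mybbp1a, for a MYB-binding repressor of ribosomal gene transcription, was at 10.43, 10.28 and 10.89 in preSC, 10.01 and 10.73 with L-Myc, 11.44 and 10.79 with C-Myc, and 11.37 and 10.79 with N-Myc, with overlap between preSC and each other group.

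**Figure D3:**
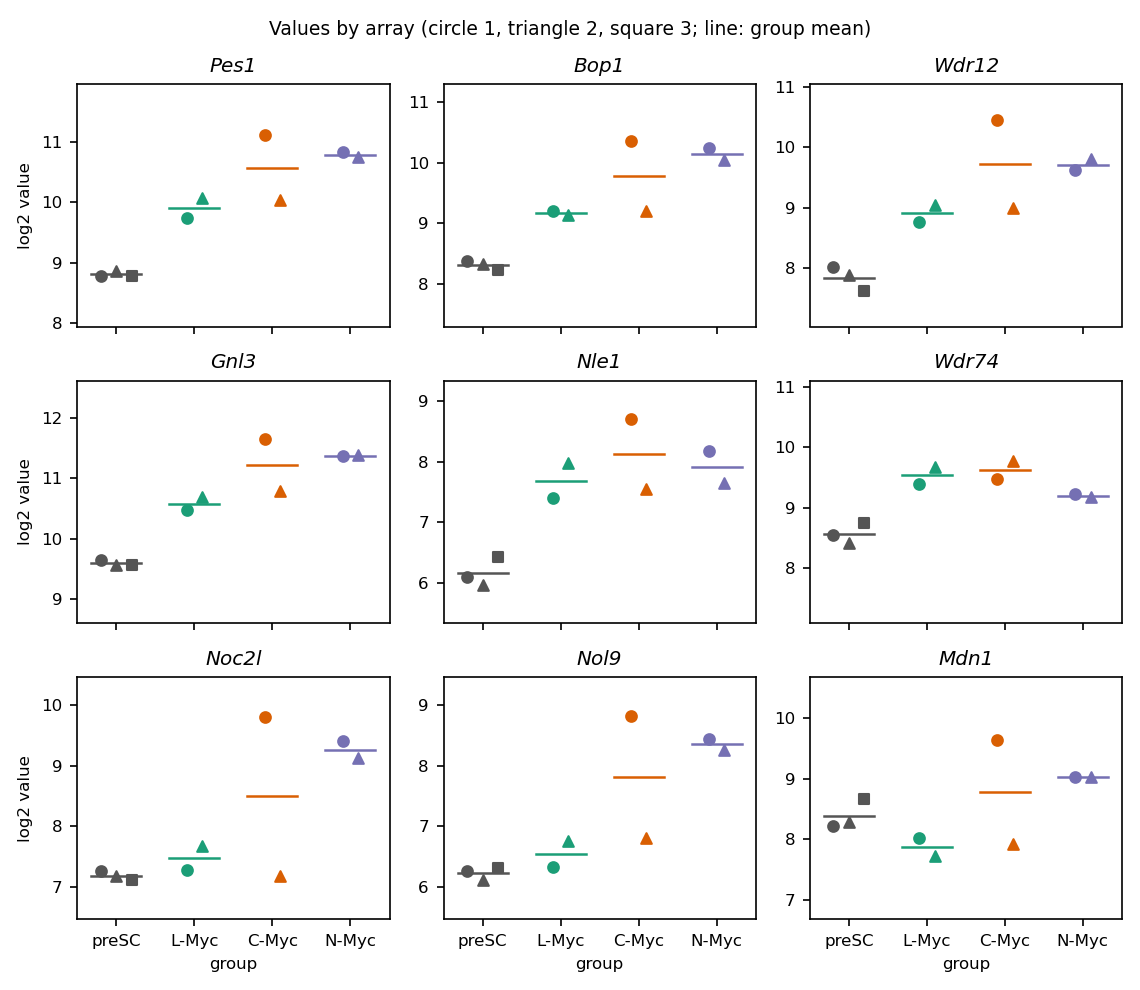
Log2 value on each array for 9 of the genes (panels), by group; circles, triangles and squares are replicates 1, 2 and 3, lines are group means, and every panel spans 4 log2 units. For Noc2l, Nol9 and Mdn1 the C-Myc circle sits by the N-Myc arrays and the C-Myc triangle by the L-Myc arrays, while for Wdr74 the C-Myc arrays lie close together.

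The promoters were read for E-box letters because the proteins added to these cells bind them. RefSeq windows of build GRCm38.p6, from 250 bases before to 50 after the annotated start, were at hand for 34 of the 37 genes. CACGTG, which reads the same on both strands, was present in 6 of them (17.6%), against 8.09% of all 27025 genes with a window and 11.5% of the 10442 tested genes with one. The related letters CACGCG, or CGCGTG on the other strand, which do not overlap CACGTG in definition, were present in 14 (41.2%), against 10.49% and 19.7%. Median GC content of the windows was 60% for the 34 genes, 52.8% for all genes and 61.0% for tested genes. On the brightest probe sets, CACGTG was found in 3 of 23 genes called in at least 1 comparison (Nop2, Pes1, Nle1). It was found in 3 of 10 called in none (Dhx33, Mdn1, Mybbp1a). This split depends on the probe set. Dhx33 and Mybbp1a rose in all 3 groups on their next brightest probe sets, and that of Pes1 passed in none, as given below. A match is a description of the sequence and says nothing on binding in these cells.

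The 6 windows with CACGTG are printed 5′ to 3′ on the strand of the gene with the E-box in capitals, since they hold the letters that MYC and MAX are known to prefer. They lie at chr6:125131811-125131840 (plus strand) for Nop2, chr11:3963965-3963994 (plus) for Pes1, chr11:82908355-82908384 (minus) for Nle1, chr11:71004450-71004479 (minus) for Dhx33, chr4:32657139-32657168 (plus) for Mdn1 and chr11:72441347-72441376 (plus) for Mybbp1a.
Nop2: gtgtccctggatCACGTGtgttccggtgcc
Pes1: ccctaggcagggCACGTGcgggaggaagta
Nle1: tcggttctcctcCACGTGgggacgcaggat
Dhx33: ccagcacgcctgCACGTGgcgagaaagggg
Mdn1: caacgtgaattccttcacCACGTGtgtgtc
Mybbp1a: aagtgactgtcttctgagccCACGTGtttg
The first letter of the E-box lies at position -60 from the start in Nop2 and at -35 in Dhx33. In Pes1, Nle1, Mdn1 and Mybbp1a it lies inside the transcript, at position 3, 24, 39 and 41, counted from the start as 1. Pes1 and Nle1, which rose in all 3 groups, and Mdn1, which passed in none, all have the E-box just inside the transcript.

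The related letters began before the start in Gtpbp4, Nip7, Ddx56 and Pes1, which rose in C-Myc and N-Myc arrays. They also did in Mdn1, Mybbp1a and Ddx10, whose brightest probe sets passed in no comparison. In Ddx10 they run across the start. Of the 14 genes with these letters anywhere in the window, 9 were called in at least 1 comparison and 5 in none (Nol8, Ddx10, Mdn1, Nvl, Mybbp1a). That split too is by brightest probe sets. On their next brightest, Ddx10 and Mybbp1a rose in all 3 groups, Nol8 in C-Myc and N-Myc arrays and Nvl in C-Myc arrays. Examples of each kind are shown, with the related letters in capitals. Gtpbp4, Nip7 and Ddx56 are genes that rose. Mdn1 and Ddx10 are genes whose brightest probe sets did not pass. These windows lie at chr13:8996137-8996166 (minus strand), chr8:107056824-107056853 (plus), chr11:6267733-6267762 (minus), chr4:32656954-32656983 (plus) and chr9:53248098-53248127 (minus), in that order.
Gtpbp4: tgtctaggcggaCGCGTGggccacgcctcg
Nip7: aggctagagagaCACGCGttcgtggacccc
Ddx56: tgtcccgccctaCGCGTGcgcactgacagc
Mdn1: gcgcttaggtcgCACGCGccggcagctcct
Ddx10: ttcccggacttgCGCGTGcgcccctgcgcc
The capitals begin at position -142 in Gtpbp4, -41 in Nip7, -21 in Ddx56, -153 in Mdn1 and -3 in Ddx10.

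The C-Myc group mean covered 2 unlike arrays. C-Myc 1 was above C-Myc 2 for 33 of the 36 genes, by a median of 0.63 where the median over all genes was -0.02, and by over 2-fold for 9 genes, where 4.49% of all genes were over 2-fold higher in C-Myc 1. The 9 were Noc2l (2.64), Nol9 (2.01), Mdn1 (1.72), Nop16 (1.59), Wdr12 (1.46), Nle1 (1.16), Bop1 (1.14), Nop2 (1.11) and Pes1 (1.07). Only Wdr74, Gnl2 and Ddx10 were higher in C-Myc 2. By array, the median difference of the 36 genes from the preSC mean was 0.37 and 0.55 with L-Myc, 1.28 and 0.60 with C-Myc, and 0.91 and 0.94 with N-Myc. C-Myc 1 was nearer the N-Myc mean than the L-Myc mean for 32 of the 36, and C-Myc 2 nearer the L-Myc mean for 26, where 29.8% and 67.1% of all genes were nearer the L-Myc mean. Pvt1, a noncoding RNA gene beside Myc, moved with this contrast, at 13.11 in C-Myc 1, 13.58 in N-Myc 1 and 13.63 in N-Myc 2 but 7.51 in C-Myc 2 and at most 6.69 in the other arrays. Myc itself was at 11.22 and 10.68 in the C-Myc arrays. Sftpc, the surfactant protein C gene of alveolar cells, divided the arrays likewise, at 10.68 in C-Myc 1, 10.59 in N-Myc 1 and 11.10 in N-Myc 2, against 6.17 in C-Myc 2, 7.77 in L-Myc 1, 6.43 in L-Myc 2 and 6.06 to 8.42 in preSC. The part of Pvt1 or of cells with Sftpc in the result was not tested. The L-Myc arrays differed less, L-Myc 2 being higher for 31 of 36 by a median of 0.25 and by at most 0.96, and N-Myc 1 was above N-Myc 2 for 18 of 36.

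**Figure D4:**
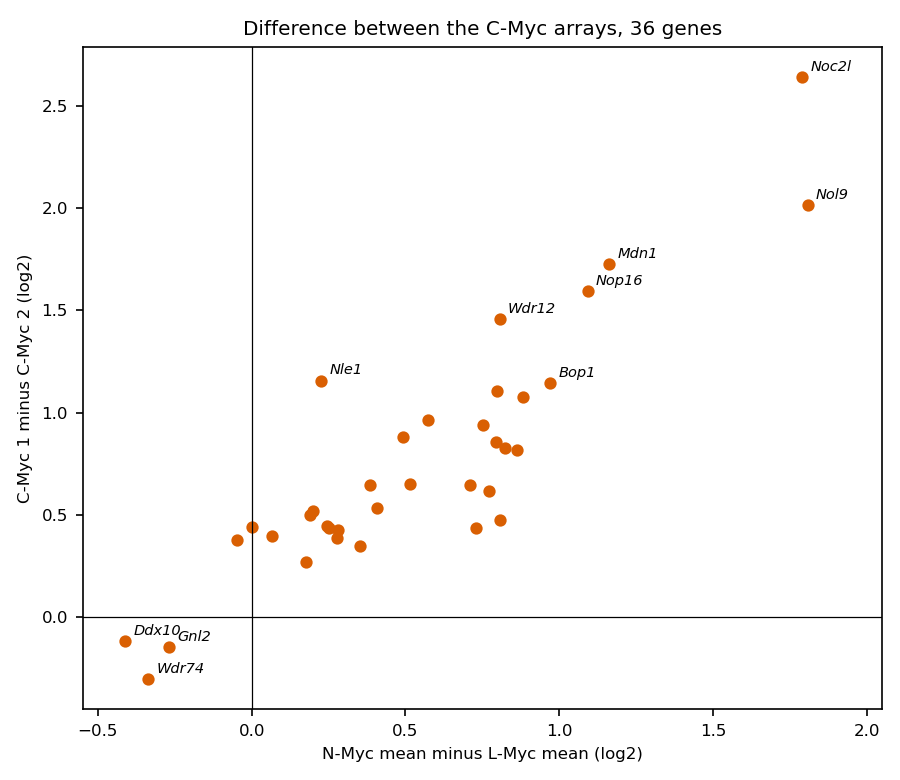
Each point is 1 of the 36 genes; the horizontal axis is the N-Myc mean minus the L-Myc mean and the vertical axis C-Myc 1 minus C-Myc 2, both in log2 units. Noc2l and Nol9 lie at the upper right, and Wdr74, Gnl2 and Ddx10 lie below 0 on both axes.

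Set against the preSC arrays of their own Dcn and Lyz2 set, the median of the 36 genes was above 0 in each. In the set with preSC 1 and 2, the median difference of the 36 genes was 0.40 for L-Myc 1, 1.30 for C-Myc 1 and 1.00 for the N-Myc arrays, with 27, 36 and 35 genes above 0. In the set with preSC 3 it was 0.52 for L-Myc 2 and 0.51 for C-Myc 2, with 31 genes above 0 in each. The C-Myc and L-Myc arrays therefore stood 0.90 apart in median difference within the first set and 0.02 apart, the other way, within the other. Wdr12 shows it by gene: C-Myc 1 and L-Myc 1 were 2.49 and 0.81 above preSC 1 and 2, whereas C-Myc 2 and L-Myc 2 were 1.36 and 1.42 above preSC 3. Mdn1 was 1.39 above preSC in C-Myc 1 but -0.74 from preSC 3 in C-Myc 2. With the array set as a block in the fit, an alternative chosen after seeing the data, 13 genes rose in L-Myc, 26 in C-Myc and 24 in N-Myc arrays, where all genes called higher came to 1314, 1992 and 2190.

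Between the transduced groups, limma called 0 of the 36 genes and 0% of all genes in C-Myc against N-Myc, in L-Myc against C-Myc and in L-Myc against N-Myc. C-Myc and N-Myc arrays differed by a median of 0.02 over the 36 genes, with 1 gene (Wdr74, higher in C-Myc, chosen after its values were seen) at an unadjusted p under 0.05, where 257 of all genes were higher and 284 lower. For Pes1 the C-Myc minus N-Myc difference was -0.22 with a 95% interval of -0.96 to 0.52, and for Gnl3 -0.15 (-0.75 to 0.45), so the intervals reach to almost 1 unit below 0. The L-Myc mean was below the C-Myc mean for all 36 genes, with a median difference of -0.49, where 50.1% of all genes had a higher L-Myc mean. The arrays of these groups overlapped for 25 of the 36, and for 11 all L-Myc arrays were lower (13.1% of all genes). At an unadjusted p under 0.05, 7 were lower (2.17% of all genes). The smallest adjusted p was 0.83. Against N-Myc arrays the median was -0.50, and the L-Myc mean was the lower for 32 of 36. There 13 were lower at an unadjusted p under 0.05 (8.55% of all genes) and 26 without overlap (29.8% of all genes). The smallest adjusted p for L-Myc against N-Myc was 0.167. These 3 comparisons share arrays with each other and with the comparisons above.

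The largest L-Myc to N-Myc differences were those of Nol9, at -1.81 (95% interval -3.10 to -0.52, adjusted p = 0.179), and Noc2l, at -1.79 (-3.44 to -0.14, adjusted p = 0.238). Mdn1 was at -1.16 (-2.30 to -0.03, adjusted p = 0.258), Pes1 at -0.88 (-1.62 to -0.14, adjusted p = 0.21) and Gnl3 at -0.79 (-1.40 to -0.19, adjusted p = 0.19). Wdr74 went the other way, by 0.34 (-0.09 to 0.76). These counts turned on the C-Myc arrays, since their spread enters the fit: without either of them 15 of the 36 genes were lower in L-Myc than in N-Myc arrays, and 460 of all genes were. Without C-Myc 2, 14 of the 36 were lower in L-Myc than in C-Myc 1, beside 265 of all genes, and without C-Myc 1 the median L-Myc to C-Myc difference was -0.11 with 0 called. Without C-Myc 1, 4 genes were lower in C-Myc 2 than in N-Myc arrays, beside 155 of all genes.

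A further probe set could be tested for 24 of the 36 genes, and there the next brightest probe set often gave another size. Over these 24, the brightest probe sets called 2, 12 and 15 genes higher, in the same order of groups, and the next brightest 5, 13 and 13, where 18.3%, 21.9% and 24.2% of all genes tested on theirs were called higher. Both called 1, 5 and 8, and either called 6, 20 and 20. The sign was shared by 16, 21 and 20 of the 24, and the medians were 0.47, 1.00 and 0.93 on brightest and 0.34, 0.66 and 0.58 on next brightest probe sets. Among all genes called higher that had such a probe set, 43.9%, 50.6% and 48.9% were also called on it. None of the 24 was called lower on it. At an unadjusted p under 0.05, 10, 16 and 16 of the 24 were higher and 1, 0 and 1 lower. Of all genes tested on theirs, 1583, 1767 and 1883 were higher and 988, 1172 and 1324 lower. Those lower among the 24 were Ddx31 in L-Myc (-0.53) and Gnl2 in N-Myc arrays (-0.55), each with all arrays of the group below preSC.

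Mybbp1a and Pwp1 differed most between their probe sets, as seen after their values were known. The next brightest probe set of Mybbp1a was at 7.49, 7.13 and 7.82 in preSC, 8.77 and 9.85 with L-Myc, 10.62 and 9.75 with C-Myc, and 10.32 and 10.01 with N-Myc. All transduced arrays stood above preSC there, unlike on the brightest probe set, and the rises were 1.83 (adjusted p = 0.0096), 2.70 and 2.68. That of Pwp1, for a WD-repeat protein of the nucleolus, was at 6.78, 6.64 and 6.61 in preSC, 9.18 and 9.36 with L-Myc, 9.96 and 9.35 with C-Myc, and 9.43 and 9.72 with N-Myc. Its rises were 2.59, 2.98 and 2.90 (SE 0.20), where the brightest probe set differed by 0.38, 0.80 and 0.77. The dimmer probe sets of Ddx10 (1.07, 1.03 and 0.57) and Dhx33 (0.97, 1.22 and 1.01) rose in all 3 groups although their brightest did not pass in any. Other genes had risen on their brightest probe set in at least 1 group but passed in none on the next brightest. They were Noc3l (0.13, -0.05 and -0.18), Ddx18 (-0.24, 0.15 and 0.11), Brix1 (0.04, 0.52 and 0.51) and Ebna1bp2 (0.10, 0.32 and 0.26). Nop16 (0.35, 0.51 and 0.47), Gnl2 (-0.18, -0.18 and -0.55), Pes1 and Bop1 were also of this kind. Nol9 and Noc2l were called on both in N-Myc arrays, with 2.39 and 1.75 on the next brightest. In C-Myc arrays they passed on the next brightest only, at 2.04 and 1.48, as did Rrs1 at 1.04. The position of these probe sets along their transcripts was not analysed here.

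**Figure D5:**
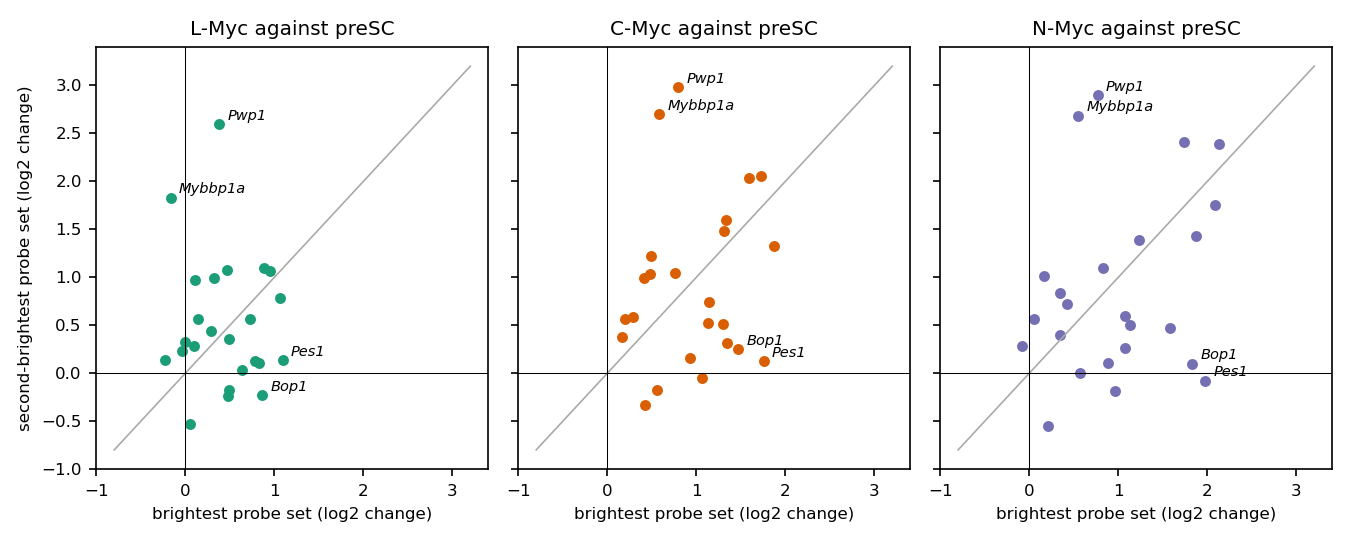
Change against preSC on the brightest (horizontal) and next brightest probe set (vertical) for the 24 genes with both, in log2 units, in L-Myc (left), C-Myc (middle) and N-Myc arrays (right); the grey line marks equal changes. Pwp1 and Mybbp1a lie far above the line, and Pes1 and Bop1 near 0 on the vertical axis.

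Other genes of 60S assembly, nuclear export and final maturation, 51 listed and 48 tested, were described in the same way. Of the 48, 7 rose in L-Myc, 20 in C-Myc and 23 in N-Myc arrays and 0 fell, beside 5.44%, 9.91% and 12.5% of all genes called higher, and 41, 28 and 25 did not pass. The medians were 0.34, 0.70 and 0.70, and 8, 6 and 6 of the 48 had a change below 0. Among the latter, named after their values were seen, Xpo1, for the export receptor of the particle, differed by -0.26, -0.35 and -0.33, and Pelp1, for a factor of late nuclear maturation, by -0.54, -0.22 and -0.31, none passing, with every transduced array below every preSC array for both. Rsl1d1, for a nucleolar protein with a ribosomal L1 domain, was at 9.90, 9.81 and 9.85 in preSC, 11.27 and 11.36 with L-Myc, 12.07 and 11.48 with C-Myc, and 11.61 and 11.70 with N-Myc, with a wide gap between preSC and the rest. It rose by 1.46 (SE 0.18, adjusted p = 0.006), 1.92 and 1.80. In L-Myc arrays the next largest rises were those of Lsg1, for the cytoplasmic GTPase that releases the export adaptor NMD3 (1.38, SE 0.19), and Xrn2, for a nuclear 5′ exonuclease that trims spacers (1.15, SE 0.14). Beside Rsl1d1, the largest were Tma16 (1.67) and Lsg1 (1.66) in C-Myc arrays, and Heatr3, for a chaperone of the 5S particle proteins (1.91), and Tma16 (1.87) in N-Myc arrays.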

How the data were processed

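RNA of 9 samples (3 preSC, 2 L-Myc, 2 C-Myc, 2 N-Myc, grouped by title) was hybridised to Affymetrix mouse arrays. The log2 values were deposited by the authors and, per the submitters' processing notes, RMA values (affy, R 3.0.1), so a change of all transcripts in 1 direction would be lost and differences of dim probe sets are compressed. The affy version and the probe sets' build are not given in the sources used here. Array medians were 6.02 to 6.07 and no further scaling was done; the number of arrays limits the precision. A platform annotation table gave 1 gene for 34945 of 45101 probe sets (932 had several, 9211 none), 18193 genes in all. Each gene was taken at its probe set with the highest mean, and 12976 genes above the 40th percentile of an array (5.28 to 5.34) on at least 2 arrays were tested. Group means of all 9 arrays were fitted with limma 3.58.1 (R 4.3.3, lmFit and eBayes, 5 residual degrees of freedom), two-sided, with Benjamini-Hochberg adjustment over all genes tested and a threshold of 0.05. The fit was tested on simulated data with independent noise on each array. Such data hold no closely alike arrays and no array sets, so the test says nothing on those. The 37 genes, the role groups and the other lists were chosen with earlier results of these data known. Named with values on every array are the 4 largest passing changes per comparison with preSC, any gene that fell (there was none) and Nop2, Pes1, Bop1, Wdr12, Gnl3, Mrto4, Las1l and Mdn1. Of other 60S genes the 3 largest changes per comparison are named; any other gene given by array or singled out (Urb2, Ddx21, Mybbp1a, Pwp1 and others) was chosen after its values were seen. Alternatives were the probe set (next brightest, or the mean), the filter, the scaling, the samples fitted, a mean-variance trend, a replicate block, averaging the closest arrays, an array set block and leaving out each array. Promoter windows are RefSeq's; 3 genes (Bop1, Gnl2, Rrs1) had none.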

Additional observations from a re-analysis of the deposited data

How the results depend on the processing

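No alternative called any of the 36 genes lower than preSC. Against counts of 5, 21 and 24 called higher, in the order L-Myc, C-Myc, N-Myc, the next brightest probe sets gave 5, 13 and 13 (of 24 genes, medians 0.34, 0.66 and 0.58), the mean of probe sets 7, 25 and 24, no filter 4, 21 and 23, centring on the genes tested 11, 27 and 27, quantile normalization 6, 22 and 24, only the 2 groups compared 8, 15 and 27, a mean-variance trend 9, 22 and 24, averaging the closest arrays 0, 0 and 0, and the array set as a block 13, 26 and 24. Centring moved the median change of all genes to 0.10, 0.12 and 0.14 and the genes called higher and lower from 706 and 1042 to 1144 and 702 in L-Myc, from 1286 and 1763 to 2064 and 1192 in C-Myc, and from 1617 and 2124 to 2662 and 1518 in N-Myc arrays, with every called direction of the 36 kept. All genes called higher came to 8.02%, 12.5% and 15.3% with the mean of probe sets. They came to 3.85%, 7.14% and 9.48% without a filter and 5.37%, 9.97% and 13.5% with quantile normalization. They came to 4.45%, 5.80% and 16.3% with only the 2 groups compared, and 5.93%, 10.2% and 12.6% with the trend. With the replicate number as a block the counts were 2, 18 and 17, and 394, 954 and 1134 of all genes were called higher. The deviations of arrays with the same number correlated by over 0.1 for 4 of 6 pairs of groups (up to 0.44) but by -0.01 and 0.05 between preSC and L-Myc or C-Myc, and no label gives the numbers a meaning, so they were not taken as a pairing. Leaving out 1 array gave 0 to 13, 12 to 30 and 3 to 29 calls, and medians of 0.60 to 1.28 in C-Myc arrays against 0.99. It also gave medians of -0.29 to 0.35 between C-Myc and N-Myc and of -0.92 to -0.11 between L-Myc and C-Myc arrays, with 0 to 4 genes lower in C-Myc than N-Myc, 0 to 14 lower in L-Myc than C-Myc and 0 to 15 lower in L-Myc than N-Myc arrays. With only those groups fitted, 2 genes were lower in L-Myc than N-Myc arrays, where 79 of all genes were lower and 162 higher. Among genes that passed, signs turned on next brightest probe sets for Noc3l (-0.048 in C-Myc and -0.18 in N-Myc), Gnl2 (-0.18 in C-Myc, and -0.026 with the mean of probe sets) and Pes1 (-0.078 in N-Myc). Leaving out an array leaves some groups with 1 array, which is then assumed to vary like the others; the cause of the other shifts was not tested.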
